A study of Mus musculus with 18 samples.

Results

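The cytosolic RNA and DNA sensor genes are a set of 9 genes taken by symbol: Ddx58, Ifih1, Dhx58, Mavs, Mb21d1, Tmem173, Zbp1, Tbk1 and Irf3. They are 9 of the 17941 gene symbols with read counts in splenic neutrophils of female NZBWF1/J mice, and all 9 had enough counts to be tested. NZBWF1/J is the hybrid of the NZB and NZW strains and, as it ages, comes down with a disease like lupus. The groups were 14 weeks, 20 weeks and 26 weeks of age, 3 disease stages with 6 untreated mice each and 1 library per mouse. Stage is given by age alone, no healthy strain of the same ages is part of the comparisons, and the labels give no disease score per mouse. The neutrophils were gated by flow cytometry as DAPI-negative single cells with Ly6G, CD11b and Ly6b on their surface and a middle level of Ly6C.

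Cells keep watch on their cytosol with proteins that bind RNA or DNA out of place. RIG-I (Ddx58) and MDA5 (Ifih1) bind double-stranded RNA and signal through MAVS on mitochondria. The enzyme cGAS (Mb21d1, now named Cgas) binds DNA and makes the cyclic dinucleotide cGAMP, which activates STING (Tmem173) on the endoplasmic reticulum. Both routes reach the kinase TBK1, which phosphorylates the transcription factor IRF3, and IRF3 turns on the interferon beta gene. Type I interferon in turn raises the transcription of several of these sensors, and interferon-induced genes are often raised in the blood of people with lupus.

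Library totals ran from 5546624 to 17256379 counts, and 8119 to 13164 genes had a count in a library. The library of 20-week replicate 3 had the fewest genes with a count, and calls of the sensor genes that change without it are given both ways. Levels are in CPM, read counts scaled to a common library size with TMM factors. A difference between ages was called at an adjusted p under 0.05 in edgeR's quasi-likelihood test over 10104 genes, and log2 fold changes are later over earlier age, ± SE. A count of 3 reads corresponds to 0.170 to 0.629 CPM, depending on the library.

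The sorted cells carried neutrophil transcripts at every age. The 10 neutrophil markers summed to 92078 to 126197 CPM at 14 weeks, 39367 to 80013 CPM at 20 weeks and 107620 to 248346 CPM at 26 weeks, so the 20-week range lay below both others. Ly6g, the antigen used in the sort, averaged 1245 ± 176, 481 ± 216 and 2829 ± 1248 CPM at 14, 20 and 26 weeks (SD, n = 6 each). The markers did not all follow that order: edgeR called 1 of the 10 higher and 7 lower at 20 than at 14 weeks, 5 and 4 at 26 than at 14 weeks, and 5 and 1 at 26 than at 20 weeks. Csf3r, the receptor for the growth factor of neutrophils, was higher at 20 than at 14 weeks (log2 fold change 1.21, edgeR adjusted p = 0.0120) and lower at 26 than at 20 weeks (-1.70, edgeR adjusted p = 0.000915). Genes of other cell types moved as well. The 6 plasma cell markers summed to 129 to 186, 349 to 2075 and 184 to 689 CPM at 14, 20 and 26 weeks, with Sdc1 at 0 in every 14-week library. The 3 of them that could be tested were higher at both 20 and 26 weeks than at 14 weeks. The 9 monocyte and macrophage markers summed to 766 to 1000, 805 to 1288 and 756 to 1582 CPM, with C1qa and C1qb at 0 in every library of 14 and 26 weeks and Ccr2 at 0 at 14 weeks. Of the 4 tested, Adgre1, Cd68 and Csf1r were higher and Ly6c2 lower at 20 than at 14 weeks. Ly6c2 encodes Ly6C, which was used in the sort, and enters those sums. It averaged 533 ± 26.4, 169 ± 75.2 and 863 ± 355 CPM at 14, 20 and 26 weeks. The 8 dendritic cell markers summed to 7.98 to 23.6, 36.6 to 84.0 and 10.7 to 28.2 CPM, with Clec9a and Siglech at 0 at 14 and 26 weeks, Flt3 also at 0 at 26 weeks and Xcr1 at 0 at 20 weeks. The 4 eosinophil markers summed to 5.83 to 20.7, 32.5 to 77.0 and 8.29 to 35.7 CPM, with Il5ra and Prg2 at 0 at 20 and 26 weeks. The T cell markers summed to 117 to 149.6, 49.99 to 102 and 98.2 to 382 CPM at 14, 20 and 26 weeks. Cd3e and Cd8a were at 0 in every 20-week library. Of the 4 T cell markers tested 1 was called, Cd3d, higher at 26 than at 20 weeks (log2 fold change 1.51, edgeR adjusted p = 0.00159). The B cell markers summed to at most 58.6 CPM in any library. NK cell markers reached at most 13.2 CPM, basophil and mast cell markers 39.8 CPM, and erythroid and platelet markers 214 CPM. The part of these shifts in the sensor results was not tested. In RNA of a sorted population, fewer cells of a type and less RNA per cell cannot be told apart.

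In the test of any change over the 3 ages, 3 sensor genes passed, Ddx58 (adjusted p = 0.00541), Irf3 (0.0446) and Mb21d1 (0.0458) in edgeR's test. They are 3 of 9, where 23% of all genes tested passed. Between 20 and 14 weeks 2 of 9 were called, both higher at 20 weeks, against 10.2% of all genes called in either direction, 4.93% higher and 5.27% lower. Between 26 and 14 weeks 2 of 9 were called, 1 higher and 1 lower, against 11% of all genes in either direction, 5.45% higher and 5.54% lower. Between 26 and 20 weeks edgeR called 0 of 9, against 16% of all genes, 8.03% higher and 7.98% lower. In that last pair 1 member had an unadjusted p under 0.05, DESeq2 called 0 and limma-voom called 2, Dhx58 and Zbp1. Mb21d1 passed the filter on low counts only through its 20- and 26-week libraries. Its calls against 14 weeks and for any change are thus not independent of that filter. The median log2 fold change of the 9 was -0.45 for 20 against 14 weeks, -0.41 for 26 against 14 and -0.17 for 26 against 20, where all tested genes had medians of -0.02, 0.04 and 0.05. Of the 9 genes 6 had a negative log2 fold change at 20 against 14 weeks, 7 at 26 against 14 and 6 at 26 against 20. The sets of 6 libraries did not overlap for 0 of 9 genes at 20 against 14 weeks (6.9% of all genes), 1 of 9 at 26 against 14 (6.76%) and 0 of 9 at 26 against 20 (5.96%).

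**Figure D1:**
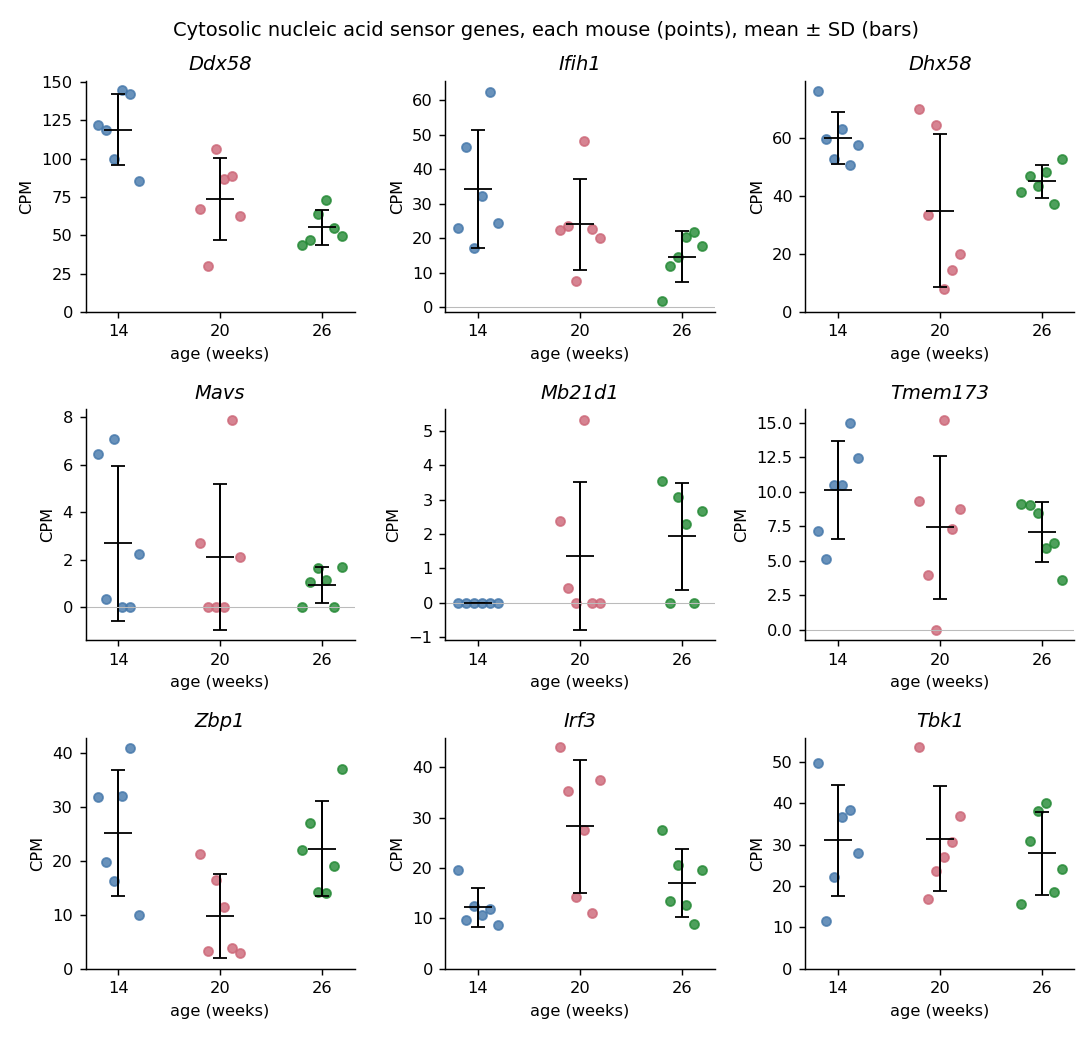
Level of each sensor gene in CPM (vertical axis, linear, a separate scale per gene) in each of the 18 mice, by age in weeks on the horizontal axis, with bars for the mean ± SD of 6 mice. The 26-week points of Ddx58 lie below all 14-week points, Mb21d1 is at 0 in all 6 mice at 14 weeks, and 4 of the 6 Irf3 points at 20 weeks lie above the highest at 14 weeks.

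Ddx58, which encodes the receptor RIG-I for RNA with a free triphosphate end, was lower at 26 weeks than at 14 weeks. Its lowest, median and highest values were 85.6, 120.2 and 144.8 CPM at 14 weeks, 30.1, 77.0 and 106.4 CPM at 20 weeks, and 43.4, 52.2 and 73.3 CPM at 26 weeks. All 6 libraries at 26 weeks lay below all 6 at 14 weeks, and the 20-week libraries overlapped both groups. Ddx58 averaged 55.3 ± 11.4 CPM at 26 weeks and 118.8 ± 23.2 CPM at 14 weeks (SD, n = 6 each), a 2.15-fold fall (log2 fold change -1.10 ± 0.24, 95% interval -1.60 to -0.61, edgeR adjusted p = 0.00602). This call held in all 12 other settings, with log2 fold changes between -1.18 and -0.99, and in each of the 18 fits without 1 library. At 20 weeks the mean was 73.6 ± 26.6 CPM against the 118.8 CPM of 14 weeks, and the difference did not pass (-0.69 ± 0.24, edgeR adjusted p = 0.0685). It did pass without 20-week replicate 3, the library with the highest Ddx58 of its age (-0.83, edgeR adjusted p = 0.0298) and with limma-voom (adjusted p = 0.0171).

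The start of Ddx58 lies on the minus strand of chromosome 4 of GRCm38 (gene model chr4:40203773-40239828, GENCODE M21). Its promoter from RefSeq, chr4:40239814-40240075 of GRCm38.p6, is shown because Ddx58 is the member whose call held in every setting. It is written on the gene's strand, and its last 12 bases are the first of the transcript. The later block of capitals marks, on the opposite strand, GAAA, 2 bases of any kind and GAAA again, the core of the interferon-stimulated response element, and the earlier block a tighter repeat, GAAANGAAA, a pattern chosen after the sequence had been seen. The response element is the site bound by the factor complex that type I interferon activates.
Ddx58 promoter: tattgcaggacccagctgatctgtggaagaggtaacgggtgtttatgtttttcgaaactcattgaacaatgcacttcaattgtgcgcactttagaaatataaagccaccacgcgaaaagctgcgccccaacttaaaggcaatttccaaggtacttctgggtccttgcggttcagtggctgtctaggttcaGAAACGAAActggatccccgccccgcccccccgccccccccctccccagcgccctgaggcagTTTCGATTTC
Ifih1 site: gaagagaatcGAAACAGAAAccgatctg
The Ifih1 site, chr2:62646206-62646233 on the minus strand, is shown because Ifih1 was the other member with a match among those searched, 33 to 42 bases into its transcript. In windows from 250 bases before to 50 bases after the start, searched on both strands, 2 of the 6 members with a RefSeq promoter held the response element core, against 3.44% of 32851 promoters. The 6 were Ddx58, Ifih1, Mavs, Mb21d1, Irf3 and Tbk1. None of the 6 held TTCNNNGAA, the core of the interferon gamma activated site, which 8.3% of promoters held, and the tighter repeat of Ddx58 was in 3.17%. A match of letters is a description of the sequence and was not tested as a binding site.

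Ifih1 (chr2:62595798-62646255, minus strand) encodes MDA5, the receptor for long double-stranded RNA, which signals through the same adaptor as RIG-I. Its lowest, median and highest values were 17.3, 28.4 and 62.6 CPM at 14 weeks, 7.66, 22.6 and 48.1 CPM at 20 weeks, and 1.66, 16.2 and 21.8 CPM at 26 weeks. All 6 libraries at 26 weeks lay below the 14-week median, and 3 of them below the 14-week minimum. The mean of 14.7 ± 7.34 CPM at 26 weeks against 34.4 ± 17.1 CPM at 14 weeks gave a log2 fold change of -1.23 ± 0.48 (95% interval -2.23 to -0.23), with an unadjusted p of 0.0188 and an edgeR adjusted p of 0.111. The estimate is no smaller than that of Ddx58, and the libraries spread more around it: the coefficient of biological variation was 0.565 for Ifih1 and 0.296 for Ddx58. Limma-voom alone of the other settings called it (adjusted p = 0.0209).

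Dhx58 (chr11:100694884-100704271, minus strand) encodes LGP2, a receptor of the same family that lacks the signalling domains and tunes the other RNA receptors. It was the most uneven of the family among 20-week mice, whose lowest, median and highest values were 7.74, 26.7 and 69.9 CPM. At 14 weeks these were 50.8, 58.6 and 76.3 CPM, and at 26 weeks 37.1, 45.3 and 52.9 CPM. At 20 weeks 4 of the 6 libraries lay below the 14-week minimum, while replicates 1 and 3, at 69.9 and 64.4 CPM, lay above the 14-week median. The log2 fold change was -0.78 ± 0.38 for 20 against 14 weeks (edgeR adjusted p = 0.223), -0.41 ± 0.37 for 26 against 14 (0.592) and 0.37 ± 0.37 for 26 against 20 (0.574). Limma-voom, which weights libraries by their quality, gave -1.38 for 20 against 14 (adjusted p = 0.00611) and 1.07 for 26 against 20 (0.0289). Dhx58 shares 141 bases of its exons, 4.3%, with the antisense gene Dhx58os on the other strand, and the sources used here do not give the strand setting of the counting. Dhx58os averaged 7.70 ± 1.43, 3.87 ± 2.91 and 6.12 ± 0.783 CPM at 14, 20 and 26 weeks and was not called.

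Mavs (chr2:131234063-131248025, plus strand), the mitochondrial adaptor through which RIG-I and MDA5 signal, was read in some mice and not in others at every age. It had reads in 4 of 6 libraries at 14 weeks, 3 of 6 at 20 weeks and 4 of 6 at 26 weeks, with at most 87 reads in any library. Its means were 2.69 ± 3.28, 2.12 ± 3.07 and 0.921 ± 0.760 CPM at 14, 20 and 26 weeks. Libraries ranged from 0 to 7.09 CPM at 14 weeks, from 0 to 7.88 CPM at 20 weeks and from 0 to 1.70 CPM at 26 weeks. No difference between ages passed (edgeR adjusted p = 0.934, 0.648 and 0.680 for 20 against 14, 26 against 14 and 26 against 20 weeks).

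**Figure D2:**
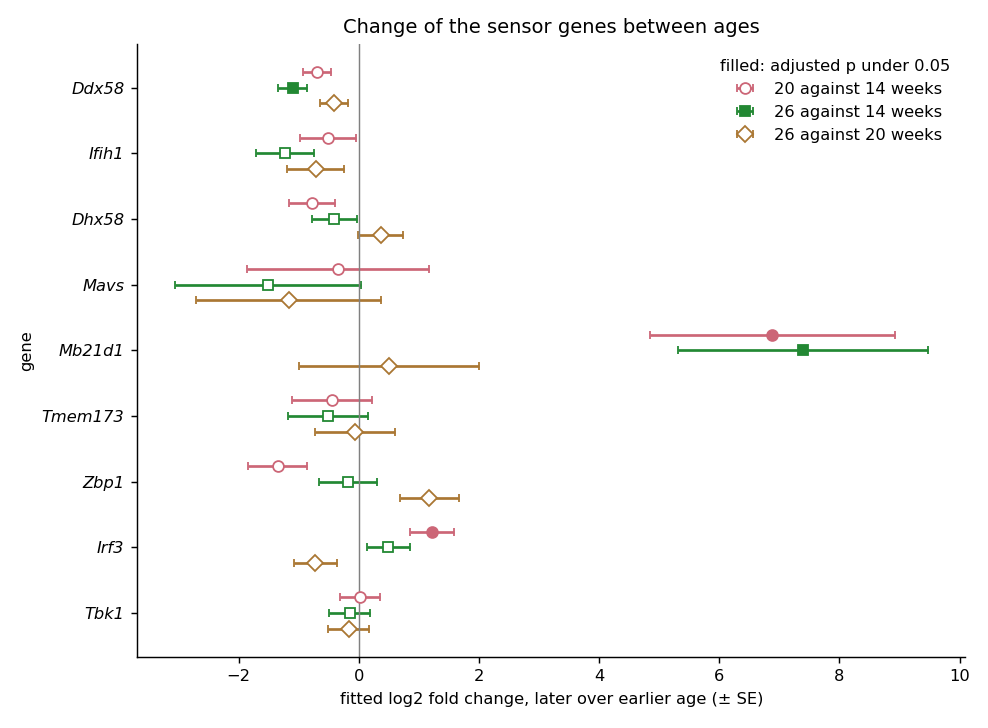
Fitted log2 fold change (horizontal axis, later over earlier age) ± SE of each sensor gene for the 3 pairs of ages, with filled symbols for adjusted p under 0.05. The filled symbols are Ddx58 at 26 against 14 weeks, Irf3 at 20 against 14 weeks and Mb21d1 in both comparisons with 14 weeks, where its fitted value depends on the prior count because every 14-week library is at 0.

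Mb21d1 (chr9:78430526-78443237, minus strand), which encodes the DNA sensor cGAS, had reads only after 14 weeks. It was at 0 in all 6 libraries at 14 weeks. At 20 weeks replicates 1, 2 and 4 held 29, 6 and 57 reads and the other 3 none. At 26 weeks replicates 1, 3, 4 and 6 held 30, 54, 22 and 25 reads and the other 2 none. The gene was thus absent from the reads of some mice at every age, and the ages overlapped at 0. Pooled over 6 libraries it stood at 1.37 CPM at 20 weeks, at least 30.7-fold higher than the 0.0446 CPM that 3 reads over all 14-week libraries would give. Of the 92 reads behind that value 57 came from replicate 4, and without it the pooled level was 0.621 CPM, at least 13.9-fold higher than the floor. At 26 weeks Mb21d1 stood at 2.20 CPM, at least 49.3-fold higher than the floor, and at least 40.3-fold higher without any 1 library. These minimum folds, 4.94 and 5.62 on the log2 scale at 20 and 26 weeks, cover counting error only and leave out the spread between mice. With that spread, the fitted log2 fold change had a 95% interval of 2.52 to 11.2 for 20 against 14 weeks. For 26 against 14 weeks the interval was 2.95 to 11.8, so the lower limits lay below the minimum folds. The edgeR adjusted p was 0.0452 for 20 against 14 weeks and 0.0340 for 26 against 14.

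Those calls lay close to the threshold. For 20 against 14 weeks the call was lost without any 1 of the 14-week libraries, of 20-week replicates 1, 2 and 4 or of 26-week replicates 1, 3, 4 and 6, with edgeR adjusted p up to 0.1001. For 26 against 14 weeks it was lost without any 1 of the 14-week libraries or of 26-week replicates 1, 3 and 6, with edgeR adjusted p up to 0.0710. The 20-week call was also lost with limma-voom (log2 fold change 2.81, adjusted p = 0.270) and with no filter on low counts (edgeR adjusted p = 0.0577). Macrophages and dendritic cells also express Mb21d1. Of 4 monocyte and macrophage markers tested, 3 were higher and 1 lower at 20 than at 14 weeks, and 0 were called at 26 against 14. Among them, for 20 and 26 against 14 weeks, Adgre1 had log2 fold changes of 1.72 (edgeR adjusted p = 0.00332) and -0.03 (edgeR adjusted p = 0.973). Ly6c2, which encodes the Ly6C used in the sort, had -1.66 (edgeR adjusted p = 0.00102) and 0.69 (edgeR adjusted p = 0.111). The dendritic cell marker Itgax was higher at 20 than at 14 weeks (3.02, edgeR adjusted p = 0.00995) and did not pass at 26 against 14 (1.15, edgeR adjusted p = 0.338). The 3 plasma cell markers tested were higher at both later ages than at 14 weeks, Jchain by 10.7 and 6.70. The part of other cell types in the Mb21d1 differences was not tested. Mb21d1 shares 201 bases of its exons, 4.9%, with the pseudogene Gm8093 on the other strand. Its promoter, chr9:78443238-78443487 on the minus strand of GRCm38.p6, is shown as the counterpart to that of Ddx58. Mb21d1 was the member called higher at both later ages, though it passed the filter on low counts only through libraries of those ages. The promoter held neither interferon pattern.
Mb21d1 promoter: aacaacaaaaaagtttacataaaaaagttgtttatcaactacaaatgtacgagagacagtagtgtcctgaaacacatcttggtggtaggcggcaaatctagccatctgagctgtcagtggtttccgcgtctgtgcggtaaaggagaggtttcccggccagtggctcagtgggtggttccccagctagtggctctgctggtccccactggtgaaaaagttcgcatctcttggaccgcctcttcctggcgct

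Tmem173 encodes STING, the receptor for the cGAMP that cGAS makes, and did not pass the test in any pair of ages. Its lowest, median and highest values were 5.12, 10.5 and 15.0 CPM at 14 weeks, 0, 8.01 and 15.2 CPM at 20 weeks, and 3.61, 7.37 and 9.12 CPM at 26 weeks. The 3 ages overlapped widely, and the 0 came from 20-week replicate 3, without which no pair of ages passed either (-0.19 for 20 against 14 weeks, edgeR adjusted p = 0.831). The log2 fold change was -0.45 ± 0.67 for 20 against 14 weeks and -0.52 ± 0.67 for 26 against 14 (edgeR adjusted p = 0.763 and 0.733). The 95% interval of the first ran from -1.84 to 0.94, which leaves room for a fall as large as that of Ddx58.

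Zbp1 (chr2:173206612-173218923, minus strand) encodes a sensor of nucleic acids in the left-handed Z form that can start necroptosis, an inflammatory cell death. Its lowest, median and highest values were 10.0, 25.8 and 40.8 CPM at 14 weeks, 3.01, 7.61 and 21.2 CPM at 20 weeks, and 14.1, 20.6 and 37.0 CPM at 26 weeks. All 6 libraries at 20 weeks lay below the 14-week median, and all 6 at 26 weeks lay above the 20-week median. The means were 25.1 ± 11.6, 9.85 ± 7.77 and 22.2 ± 8.75 CPM at 14, 20 and 26 weeks (SD, n = 6 each). Neither difference passed in edgeR: the log2 fold change was -1.35 ± 0.49 for 20 against 14 weeks (unadjusted p = 0.0124, adjusted p = 0.0887) and 1.17 ± 0.49 for 26 against 20 (unadjusted p = 0.0264, adjusted p = 0.111). Without 20-week replicate 1, the library with the highest Zbp1 of its age, both passed in edgeR, at -1.73 (adjusted p = 0.0276) and 1.55 (adjusted p = 0.0348). DESeq2 called the first (adjusted p = 0.0493) and limma-voom the second (adjusted p = 0.0474). At 26 against 14 weeks the log2 fold change was -0.18 ± 0.48 (edgeR adjusted p = 0.888).

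Tbk1 (chr10:121546455-121586787, minus strand), the kinase on which the RNA and DNA routes meet, differed little between ages. Its means were 31.1 ± 13.5, 31.5 ± 12.8 and 27.97 ± 10.1 CPM at 14, 20 and 26 weeks. Single mice ran from 11.4 to 49.7 CPM at 14 weeks, from 17.0 to 53.7 CPM at 20 weeks and from 15.8 to 40.1 CPM at 26 weeks. The ages overlapped almost in full. The log2 fold change for 20 against 14 weeks was 0.02 ± 0.34, with a 95% interval of -0.69 to 0.73 (edgeR adjusted p = 0.982).

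Irf3 (chr7:44997648-45002848, plus strand), the factor that TBK1 phosphorylates, was higher at 20 weeks. Its lowest, median and highest values were 8.66, 11.3 and 19.7 CPM at 14 weeks, 11.1, 31.4 and 44.0 CPM at 20 weeks, and 8.80, 16.6 and 27.5 CPM at 26 weeks. At 20 weeks 4 of the 6 libraries lay above the highest at 14 weeks, while replicates 3 and 5, at 14.2 and 11.1 CPM, lay within the 14-week range. Irf3 averaged 28.3 ± 13.2 CPM at 20 weeks and 12.2 ± 3.92 CPM at 14 weeks (SD, n = 6 each), a 2.32-fold rise (log2 fold change 1.21 ± 0.36, 95% interval 0.46 to 1.97, edgeR adjusted p = 0.0377). At 26 weeks the mean was 17.1 ± 6.75 CPM, and neither the difference from 14 weeks (0.49 ± 0.36, edgeR adjusted p = 0.471) nor that from 20 weeks passed (-0.72 ± 0.36, edgeR adjusted p = 0.190). The rise at 20 weeks was called in 8 of the 12 other settings and in 9 of the 18 fits that leave out a library. It was lost without any 1 of 14-week replicates 2 to 6 or of 20-week replicates 1, 2, 4 and 6, with edgeR adjusted p from 0.0620 to 0.0866 and log2 fold changes from 1.04 to 1.22.

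Irf3 and its neighbour Bcl2l12 lie head to head on chromosome 7, and 181 of the 250 bases before the start of Irf3 are in exons of Bcl2l12. Their exons share 88 bases, 2.6% of those of Irf3. Bcl2l12 averaged 1.69 ± 0.501, 2.78 ± 1.28 and 2.52 ± 1.01 CPM at 14, 20 and 26 weeks and was not called (log2 fold change 0.72 ± 0.59 for 20 against 14 weeks, edgeR adjusted p = 0.530). At 20 weeks, the age of highest Irf3, the median of the summed neutrophil markers was 60847 CPM, against 108133 CPM at 14 weeks, and that of the plasma cell markers 841 CPM, against 158 CPM at 14 weeks. The part of these in the Irf3 difference was not tested.

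**Figure D3:**
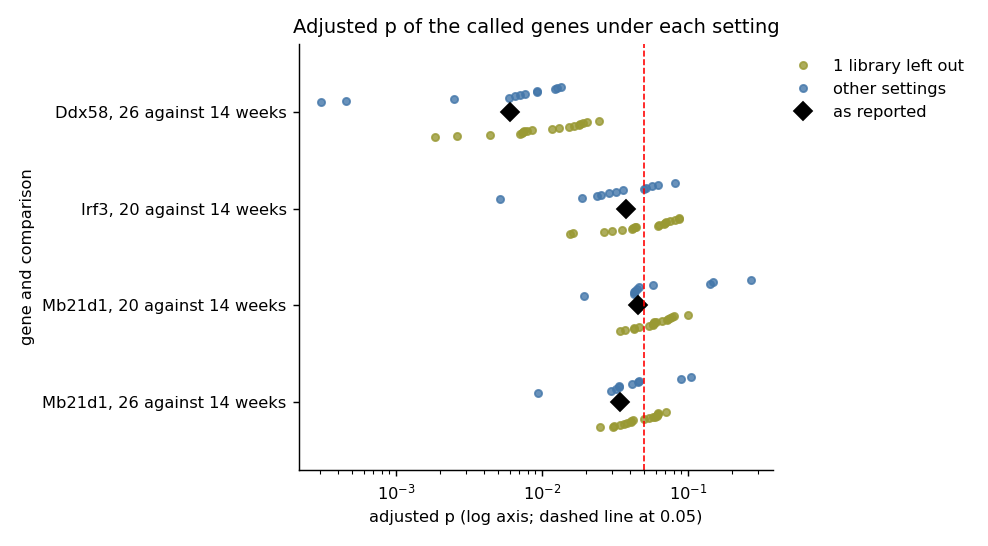
Adjusted p (horizontal log axis, dashed line at the 0.05 threshold) of the 4 called differences as reported (diamonds), under the other settings (blue) and with 1 library left out (olive). All points of Ddx58 lie left of the line, with a highest value of 0.0244, while Irf3 and both differences of Mb21d1 have points on both sides.

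Read per length of exon, Dhx58 and Ddx58 stood at the top and Mavs and Mb21d1 at the bottom. Over the 18 libraries Dhx58 averaged 14.3 ± 5.72, Ddx58 11.7 ± 4.83, Tbk1 7.72 ± 2.96, Irf3 5.58 ± 3.15, Zbp1 5.40 ± 3.18, Tmem173 2.99 ± 1.41, Ifih1 2.98 ± 1.82, Mavs 0.571 ± 0.772 and Mb21d1 0.265 ± 0.402 CPM per kb (SD, n = 18). Of the 8 steps between neighbours in that order, 1 was larger than the SD of the difference within libraries, that of Ifih1 over Mavs (2.41 ± 2.11 CPM per kb, higher in 17 of 18 libraries). Dhx58 and Ddx58 held the first and second rank at each age. Irf3 ranked 7 at 14 weeks, 3 at 20 weeks and 5 at 26 weeks. Ddx58 made up 36.2% to 43.9% of the summed CPM of the 9 genes in single libraries at 14 weeks, 20.5% to 47.5% at 20 weeks and 23.7% to 33.6% at 26 weeks.

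**Figure D4:**
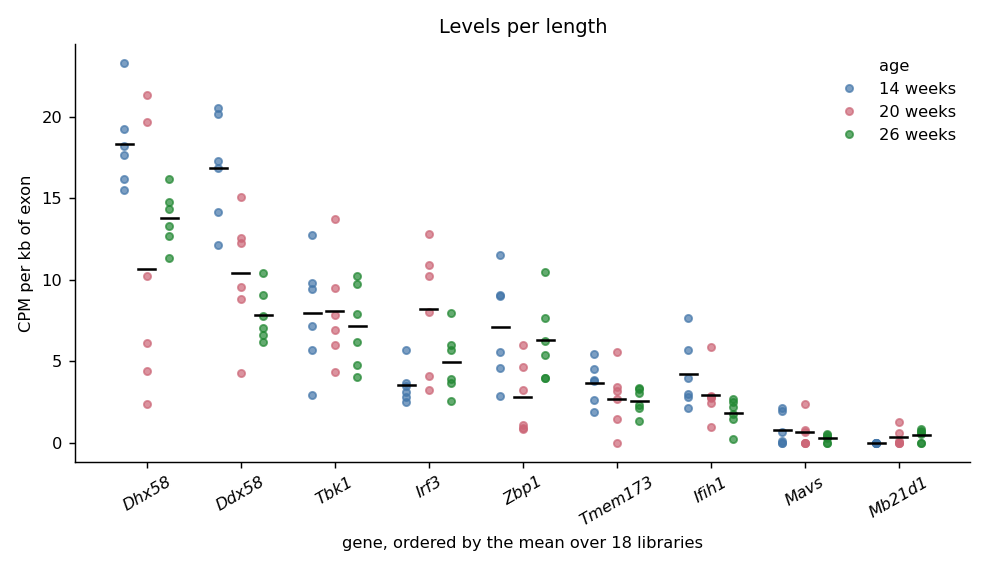
Level of each sensor gene per length, in CPM per kb of exon (linear vertical axis), in each mouse and by age, with black lines for the mean of 6 mice. Genes run from the highest mean over 18 libraries, Dhx58 at 14.3, to the lowest, Mb21d1 at 0.265 CPM per kb.

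The members spread differently between mice of 1 age. The coefficient of biological variation of Ddx58, 0.296, was close to the median of 0.286 of genes of like level, and that of Irf3 was 0.440 against 0.483. Dhx58 at 0.454 against 0.337 and Ifih1 at 0.565 against 0.427 varied more than genes of like level did at the median. Mavs and Mb21d1 reached 1.89 and 1.86, against 1.31 and 1.42.

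Across the 18 libraries, which share 3 ages, the genes with the pattern most like each member were read off by Pearson's r of log2 CPM among 4448 genes of at least moderate level. Oas3, whose product makes the messenger that activates RNase L, was nearest to Ddx58 (r = 0.855), closely followed by Rap1gds1 (0.854) and B430306N03Rik (0.852). For Ifih1 these were Lrrc8d (0.861), Pacsin2 and Zbtb44, and for Dhx58 Hcfc2 (0.903), Exoc1 and Abcc5. Tmem173 had Nat8l (0.947), Osm and Ttc39b nearest, Zbp1 had C1rl (0.839), Galns and Tuba8, and Irf3 had Tcta (0.843), Chkb and Prrg2. Tbk1 had Brms1 (0.729), Cox15 and Szrd1, Mb21d1 had Lsm1 (0.775), Tmed9 and Rnf166, and Mavs had Stx2 (0.663), Cby1 and Pigm. Mb21d1 and Mavs were at 0 in some libraries of each age, where log2 CPM rests on the prior count. Any r with Mb21d1 or Mavs thus partly reflects which libraries had reads. Among the members themselves, r was highest for Dhx58 with Zbp1 (0.606) and Mb21d1 with Irf3 (0.563), 0.481 for Ddx58 with Ifih1, and lowest for Ddx58 with Irf3 (-0.493). These values describe the same 18 libraries that the comparisons of ages used.

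The partners of the RNA receptors include ubiquitin ligases, adaptors of the TRAF family and scaffolds of TBK1. Of 21 such genes 20 could be tested: 0 were higher and 1 lower at 20 than at 14 weeks, 0 and 3 at 26 than at 14 weeks, and 2 and 2 at 26 than at 20 weeks, with median log2 fold changes of -0.35, -0.27 and -0.05. Over all genes, for these and the lists that follow, 10.2%, 11% and 16% were called in the 3 pairs of ages. Tank, a scaffold that binds TBK1, averaged 26.6 ± 9.40 CPM at 20 weeks and 58.5 ± 14.0 CPM at 14 weeks (log2 fold change -1.14 ± 0.23, edgeR adjusted p = 0.00337), and at 26 weeks it was higher than at 20 weeks (0.79, edgeR adjusted p = 0.0208). Ddx60, a helicase that aids RIG-I, averaged 60.4 ± 16.1 CPM at 26 weeks and 148.3 ± 43.1 CPM at 14 weeks (-1.30 ± 0.25, edgeR adjusted p = 0.00370). Ddx60 was also lower at 26 than at 20 weeks (-0.94, edgeR adjusted p = 0.0140), as was Tbkbp1, another TBK1 scaffold (-1.04, edgeR adjusted p = 0.00943). Ikbkg, the NEMO subunit of the IKK kinases, was lower at 26 than at 14 weeks (-0.87 ± 0.20, edgeR adjusted p = 0.00825), and so was the ubiquitin ligase Traf6 (-1.32 ± 0.42, edgeR adjusted p = 0.0477). Trim25, a ubiquitin ligase that acts on RIG-I, was the second gene higher at 26 than at 20 weeks (0.60 ± 0.18, edgeR adjusted p = 0.0314) and is named after its values were seen.

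The partners in DNA sensing include helicases and chromatin and repair proteins that bind DNA. Of 14 genes 13 could be tested: 2 were higher and 0 lower at 20 than at 14 weeks, 0 and 0 at 26 than at 14 weeks, and 0 and 1 at 26 than at 20 weeks, with medians of 0.20, 0.54 and -0.28. At 20 against 14 weeks 2 of 13 is near the 10.2% of all genes. Hmgb1, a chromatin protein that binds DNA, averaged 86.3 ± 22.2 CPM at 20 weeks and 50.8 ± 9.24 CPM at 14 weeks (0.77 ± 0.19, edgeR adjusted p = 0.0129). G3bp1, a stress granule protein that promotes DNA binding by cGAS, averaged 30.1 ± 14.9 CPM at 20 weeks and 10.9 ± 3.92 CPM at 14 weeks (1.47 ± 0.38, edgeR adjusted p = 0.0171). Ddx41, a helicase reported to bind DNA, was lower at 26 than at 20 weeks (-0.997 ± 0.29, edgeR adjusted p = 0.0207).

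Other genes restrain the sensors or remove the nucleic acids they bind, and most of these did not pass in any pair of ages. Of 16 restraining genes 13 were tested: 0 were called at 20 against 14 weeks, 1 was higher and 2 lower at 26 than at 14 weeks, and 1 and 1 at 26 than at 20 weeks, with medians of 0.10, -0.41 and -0.28. Pcbp2, which directs the ubiquitin ligase Itch to MAVS, averaged 92.0 ± 57.3 CPM at 26 weeks and 24.2 ± 5.21 CPM at 14 weeks (1.92 ± 0.35, edgeR adjusted p = 0.00253), and was also higher at 26 than at 20 weeks (1.53, edgeR adjusted p = 0.00492). Itch itself was lower at 26 than at 14 weeks (-0.66 ± 0.19, edgeR adjusted p = 0.0281), as was Tax1bp1, an adaptor of such ligases (-0.85 ± 0.20, edgeR adjusted p = 0.0101). The deubiquitinase Otud5 was lower at 26 than at 20 weeks (-0.87 ± 0.19, edgeR adjusted p = 0.00427).

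Of 13 genes of nucleic acid clearance 12 were tested: 1 was higher and 0 lower at 20 than at 14 weeks, 0 and 2 at 26 than at 14 weeks, and 2 and 2 at 26 than at 20 weeks, with medians of 0.32, 0.60 and 0.08. Samhd1, which breaks down the building blocks of DNA, averaged 832 ± 128 CPM at 26 weeks and 1280 ± 189 CPM at 14 weeks (-0.62 ± 0.13, edgeR adjusted p = 0.00492). It was lower also against the 1551 ± 166 CPM of 20 weeks (-0.90 ± 0.13, edgeR adjusted p = 0.000236). Adar, which edits double-stranded RNA so that MDA5 ignores it, averaged 36.9 ± 12.0 CPM at 26 weeks and 87.2 ± 32.7 CPM at 14 weeks (-1.24 ± 0.30, edgeR adjusted p = 0.0122). Pld4, a lysosomal exonuclease, was higher at 20 than at 14 weeks (1.499 ± 0.42, edgeR adjusted p = 0.0256) and lower at 26 than at 20 weeks (-1.32 ± 0.41, edgeR adjusted p = 0.0343), the second named after its value was seen. Rnaseh2c (1.08, edgeR adjusted p = 0.00871) and Rnaset2b (1.22, edgeR adjusted p = 0.0285) were higher at 26 than at 20 weeks. Rnaset2b has a near-identical copy, Rnaset2a, between which the counting could split reads.

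The next list holds double-stranded RNA effectors, some of which bind that RNA themselves. All 12 were tested: 1 was higher and 1 lower at 20 than at 14 weeks, 0 and 1 at 26 than at 14 weeks, and 2 and 1 at 26 than at 20 weeks, with medians of -0.26, -0.24 and -0.66. Oas3 averaged 114 ± 30.03 CPM at 26 weeks and 261 ± 58.2 CPM at 14 weeks (-1.20 ± 0.29, edgeR adjusted p = 0.0107). Oasl2 was higher at 20 than at 14 weeks (0.85 ± 0.26, edgeR adjusted p = 0.0439) and lower at 26 than at 20 weeks (-0.85 ± 0.26, edgeR adjusted p = 0.0315). Oas1a, of the same family, had the opposite order, lower at 20 than at 14 weeks (-0.77 ± 0.23, edgeR adjusted p = 0.0340) and higher at 26 than at 20 weeks (0.91 ± 0.23, edgeR adjusted p = 0.00874), though it has close copies in the genome. Eif2ak2, the kinase PKR, was higher at 26 weeks at 5.13 ± 3.20 CPM than at 20 weeks at 0.761 ± 1.24 CPM (2.73 ± 0.88, edgeR adjusted p = 0.0397).

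Among downstream factors and the interferon receptor, each gene called in a comparison with 26 weeks was lower at 26 weeks. Of 15 genes 14 were tested: 1 was higher and 0 lower at 20 than at 14 weeks, 0 and 2 at 26 than at 14 weeks, and 0 and 5 at 26 than at 20 weeks, with medians of 0.03, -0.42 and -0.53. The 5 of 14 lower at 26 than at 20 weeks stand beside 7.98% of all genes, with no test of the list. Jak1, a kinase of the interferon receptor, averaged 362 ± 63.8 CPM at 26 weeks, 637 ± 52.3 CPM at 14 weeks and 551 ± 74.9 CPM at 20 weeks, and was lower at 26 weeks than at either age (-0.81 ± 0.13 with edgeR adjusted p = 0.00149, and -0.61 ± 0.13 with edgeR adjusted p = 0.00298). Ikbkb, a kinase of the NF-kB pathway, was lower at 26 than at 14 weeks (-0.79 ± 0.24, edgeR adjusted p = 0.0393). Rela, an NF-kB subunit (-0.79, edgeR adjusted p = 0.00720) and the transcription factor Irf5 (-1.14, edgeR adjusted p = 0.0242) were lower at 26 than at 20 weeks, as were Irf9 (-0.54) and the receptor chain Ifnar1 (-1.04), both named after their values were seen. Irf1, a transcription factor that interferon induces, was higher at 20 than at 14 weeks (0.78 ± 0.22, edgeR adjusted p = 0.0297). Of the 5 cell death partners of Zbp1 4 were tested, Ripk1, Ripk3, Mlkl and Casp8, and 0 were called by edgeR in any pair of ages, with medians of -0.51, -0.21 and 0.16.

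**Figure D5:**
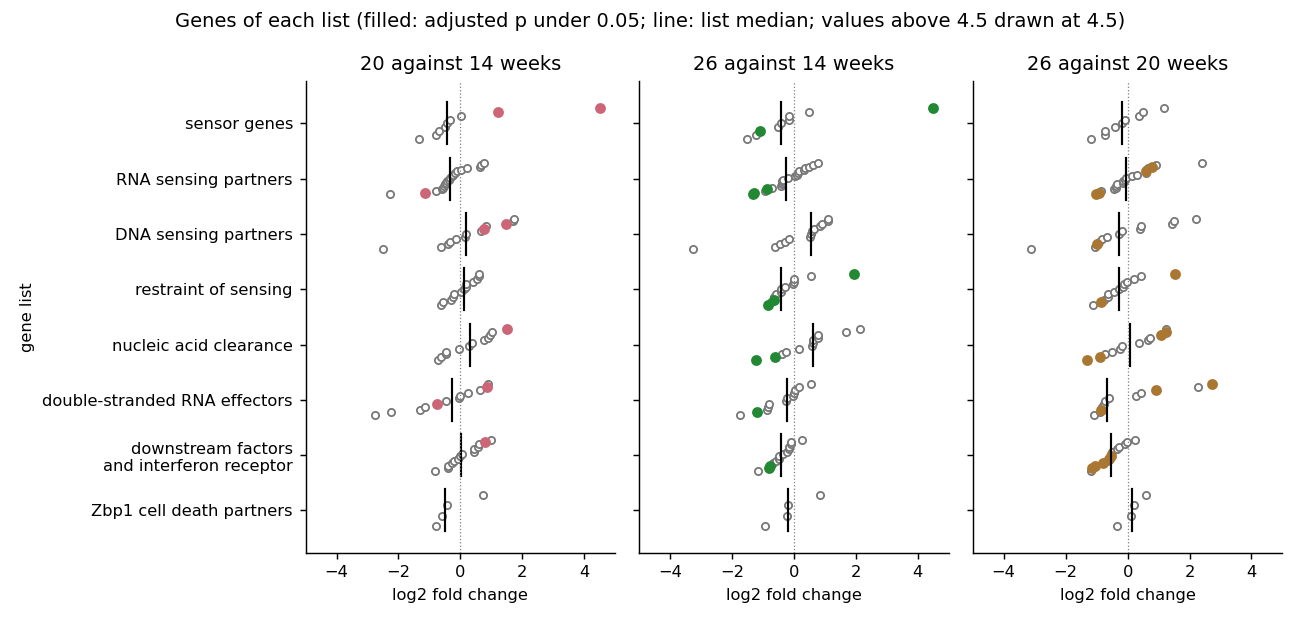
Log2 fold change (horizontal axis, later over earlier age) of each tested gene of the sensor set and of 7 partner lists for the 3 pairs of ages, with filled points for adjusted p under 0.05 and a vertical line at each list's median. Points above 4.5 are drawn at 4.5, and the called genes of the downstream list at 26 against 20 weeks are 5 of 14, all to the left of 0.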

How the data were processed

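Reads were 100 nt from a single end, from libraries made with Nextera XT from 1 ng of cDNA of RNeasy Plus Micro RNA, per the labels' protocols. The authors deposited raw read counts per gene symbol for 18 libraries, which all entered the fits. Per the submitters' processing notes they used STAR 2.4.2a, Trimmomatic 0.32, DESeq, DESeq2 1.12.3 and HTSeq 0.6.1 with GRCm38.p4, in a role and order the notes do not give; gene annotation and strand setting are not stated there. Floors of 3 counts cover counting error only.

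From these counts, edgeR 4.0.16 (R 4.3.3) fitted 18 libraries together with age as the only term (TMM factors 0.851 to 1.13, filterByExpr by age, robust quasi-likelihood F tests), with Benjamini-Hochberg adjustment over 10104 genes. The script was tested on simulated counts. Alternatives were DESeq2 1.42.0, limma-voom (limma 3.58.1), other scalings, filters, covariates, a replicate block and each library left out. CPM per kb used exon lengths of GENCODE M21. Patterns most like a member were sought among genes whose log2 CPM (prior count 2) averaged 4 or more. The text names every member, up to 3 called genes per partner list and comparison by smallest p, and the 3 genes most like each member. Members, lists and tests were chosen with earlier results of these data known. Promoters are from the RefSeq table for GRCm38.p6; those of Dhx58, Zbp1 and Tmem173 were not used here, and some genes of the lists are not analysed or not reported here. Replicates are mice, per their titles.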

Additional observations from a re-analysis of the deposited data

Results flagged for a closer look

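Of the 26 sets of 6 libraries of 1 gene at 1 age in which any library had reads, 2 held a library that lay far from the rest, where chance alone gives about 1 in 20. Mavs stood at 7.88 CPM in 20-week replicate 5, with 80 reads, and the next library of that age had 2.71 CPM. The gap was 0.656 of the whole range of that age, past the 95% critical value of Dixon's test for 6 samples. Irf3 stood at 19.7 CPM in 14-week replicate 1, where the next library of that age had 12.5 CPM, a gap of 0.647 of the range. Without that library Irf3 stayed called at 20 against 14 weeks.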

How the results depend on the processing

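The count of sensor genes called at 20 against 14 weeks, 2 as reported, was 0 with no filter on low counts, 0 in a fit of only the 2 ages, 1 under the stricter filter (10 CPM in 6 libraries, Irf3) and 1 with a gene length correction (Mb21d1). At 26 against 14 weeks, 2 as reported, it was 1 under the stricter filter and 1 in a fit of only the 2 ages, Ddx58 in both. At 26 against 20 weeks, 0 as reported, it was 2 with limma-voom. For any change with age, 3 as reported, it was 5 with limma-voom (Ddx58, Ifih1, Dhx58, Zbp1 and Irf3) and 1 with no filter. Leaving out 1 library gave 0 to 3, 1 to 2 and 0 to 1 for the 3 pairs of ages in that order, and 1 to 3 for any change. The stricter filter and the fits of 2 ages left Mb21d1 out of the test against 14 weeks; for the other changes the cause was not tested. Combinations of a member, a pair of ages and another setting were counted only where the member was tested. A call was lost in 10 of these, all of Mb21d1 or Irf3, and gained in 7, and no called value changed sign.

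The labels do not say that replicate numbers pair the mice. Over 18 pairs of same-numbered libraries the correlation of deviations from the group means ran from -0.0527 to 0.136, which cannot decide whether mice were paired. With the replicate number as a block the count was 2 at 20 against 14 weeks (Ddx58 and Irf3), 1 at 26 against 14, 0 at 26 against 20 and 1 for any change. With the block Ddx58 was called at 20 against 14 weeks (log2 fold change -0.75, edgeR adjusted p = 0.0385), and Mb21d1 was called neither there (0.142) nor at 26 against 14 weeks (0.0900). With the block and the length correction together it was 0, 1, 0 and 1.

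Over all genes, DESeq2 called 1698, 1789 and 2553 in the 3 pairs of ages, where edgeR called 1030, 1111 and 1617, and limma-voom called 2633 at 26 against 14 weeks and 4005 for any change, where edgeR called 2321. At 26 against 14 weeks the fit of only the 2 ages called 1710, and the length correction with the block 724. The share of higher genes among those called at 26 against 14 weeks was 49.6%, but 32.5% with the length correction, 26.5% with that and the block, 62.0% with upper quartile scaling and 59.6% with DESeq2. The fold of pooled Mb21d1 over the floor was also taken without 1 library, a step chosen after seeing the data. It ran from 13.9 to 36.4 at 20 against 14 weeks and from 40.3 to 58.8 at 26 against 14. A floor of 3 counts is 0.170 to 0.629 CPM per library; whether depth or spread between mice keeps Mavs from passing was not tested.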
